A study of Mus musculus with 4 samples.

Results

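Gamma delta T cells were examined in 4 single-cell RNA libraries of mouse liver, labelled HCC (hepatocellular carcinoma), high-AFP, low-AFP and control. A barcode was a member if it had at least 2 UMIs (unique molecular identifiers, 1 per captured RNA molecule) of Cd3d, Cd3e and Cd3g together, at least 1 UMI of Trdc, and none of Cd4, Cd8b1, Cd79a or C1qa. The rule found 55 members among 28199 kept barcodes: 38 in HCC, 6 in high-AFP, 5 in low-AFP and 6 in control. Cd3d, Cd3e and Cd3g encode chains of the CD3 complex and Trdc encodes the constant region of the delta receptor chain, so the levels of the rule genes chose the cells and are not findings.

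The mice were C57BL/6, and the series concerns liver cancer arising in obesity under a CD-HFD, a diet given here by its label. Sample titles give 15 months, whereas the age field gives 17 months, in all 4 groups. The HCC title names no diet, the low-AFP title names CD-HFD and the control title a control diet. The high-AFP title names a control diet but its deposited data name CD-HFD, so the groups are called here by their AFP label (AFP is alpha-fetoprotein, a fetal liver protein used as a liver tumour marker). The HCC cells came from the tumour region. The number of mice per library is not given. The protocol, worded alike for all 4 libraries, joined purified parenchymal cells with live-sorted non-parenchymal cells 1:1 before capture, so shares of all barcodes partly follow that mixing. Whether the HCC suspension, named by its source as coming from the tumour region, was mixed in the same way is unclear, so shares of all barcodes in HCC may not be comparable with those of the other libraries. Each group is 1 library, so no test was possible and every difference describes 4 libraries. Intervals are exact 95% intervals and, like the floors, cover counting error only.

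Gamma delta T cells carry a T cell receptor built from a gamma and a delta chain in place of alpha and beta. In mice many are set in the thymus to make either interleukin 17 or interferon gamma, the second under the transcription factor encoded by Tbx21. Cells with the V gamma 6 chain, paired with the V delta 1 chain that Trdv4 encodes, are a tissue-resident type 17 population, and in mouse the scavenger receptor gene Cd163l1 (Scart1) marks them. In the liver, type 17 cells have been linked to inflammation and fibrosis, and type 1 cells to killing of infected or transformed cells.

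The receptor segments on which the account turns are shown by the last 60 coding bases of their variable region, read from the GENCODE M21 annotation on GRCm38, all on the plus strand and in a coding exon. Capitals mark the codon of the conserved cysteine at which the hypervariable junction of the receptor starts. Trdv4 lies at chr14:54075456-54075515, Tcrg-V6 at chr13:19190870-19190929 and Tcrg-V5 at chr13:19192666-19192725.
Trdv4: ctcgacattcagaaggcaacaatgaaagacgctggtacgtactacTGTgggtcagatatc
Tcrg-V6: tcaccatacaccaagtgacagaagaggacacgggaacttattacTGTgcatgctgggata
Tcrg-V5: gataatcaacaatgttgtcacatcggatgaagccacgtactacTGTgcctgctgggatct
Reads from a 3' kit start far from the variable segment, so a count of 0 says little. A UMI of any delta or gamma variable gene was present in 27 of 38 HCC, 4 of 6 high-AFP, 4 of 5 low-AFP and 3 of 6 control members.

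Members were a similar share of the T-lineage barcodes in all 4 libraries, where T-lineage means at least 2 CD3 UMIs without Cd79a or C1qa. The share was 1.48% (38 of 2563, 95% interval 1.05 to 2.03) in HCC, 1.18% (6 of 509, 0.434 to 2.55) in high-AFP, 1.20% (5 of 415, 0.392 to 2.79) in low-AFP and 1.29% (6 of 466, 0.474 to 2.78) in control. These intervals all overlapped. Of all kept barcodes, members were 0.475% (0.336 to 0.651) in HCC, 0.0708% in high-AFP, 0.0933% in low-AFP and 0.0944% in control. T-lineage barcodes were themselves 32.0% of kept barcodes in HCC, 6.00% in high-AFP, 7.74% in low-AFP and 7.33% in control. Members and T cells as a whole thus both had larger shares of the HCC barcodes, where the mixing is unclear, whereas their share within the T lineage could not be told apart between libraries at this depth.

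**Figure D1:**
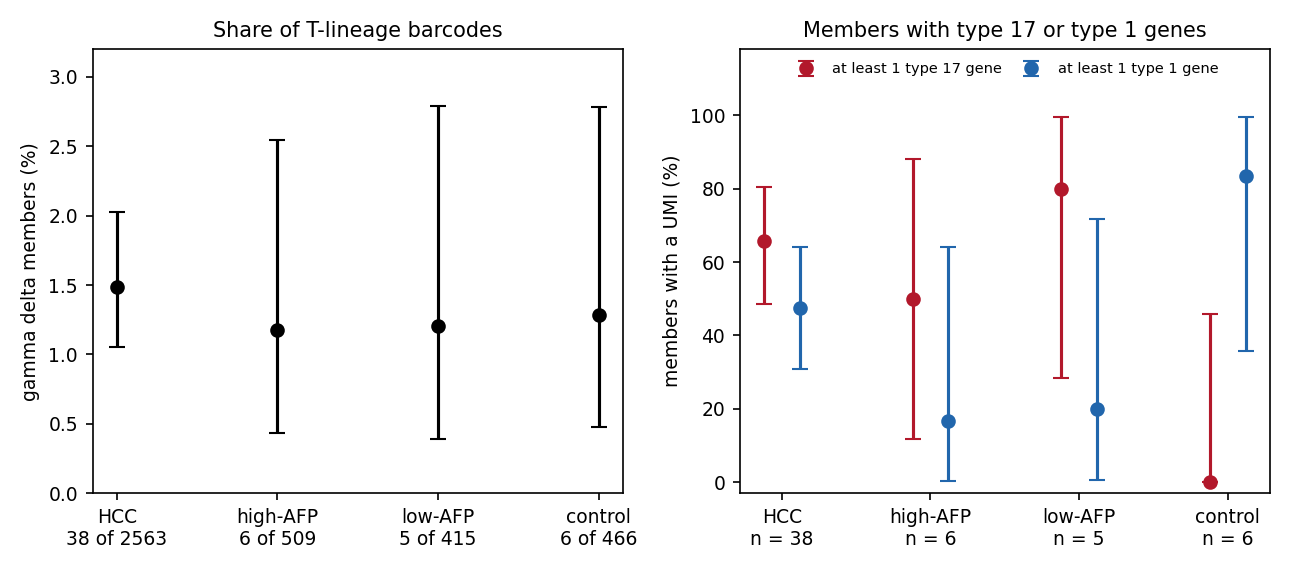
Left, gamma delta members as a percentage of T-lineage barcodes in each library, with exact 95% intervals; all 4 intervals overlap. Right, percentage of members with at least 1 UMI of a type 17 gene (red) or a type 1 gene (blue), in which HCC had 65.8% and 47.4%, and control 0% and 83.3%.

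Depth was similar among members, with a median of 5432 UMIs in HCC (2015 to 17083), 3615 in high-AFP (2521 to 3838), 4150 in low-AFP (3157 to 4508) and 4756 in control (3921 to 12865). Between 3 and 29 kept barcodes had the same sequence in any pair of libraries. At the edge of the rule, 4 HCC members, 1 high-AFP member, no low-AFP member and 1 control member had a single Trdc UMI, and 1 HCC member had exactly 2 CD3 UMIs. Just outside it, 3 barcodes in HCC and 1 in high-AFP had Trdc with 1 CD3 UMI. T-lineage barcodes with Trdc that were left out for Cd8b1 numbered 7 in HCC, 2 in high-AFP, 1 in low-AFP and 9 in control. Those left out for Cd4 numbered 2 in HCC and 1 in each other library. Barcodes with Trdc but no CD3 UMI numbered 26 in HCC, 3 in high-AFP, 6 in low-AFP and 4 in control. With at least 2 CD3 UMIs, those left out for Cd79a or C1qa numbered 3, 4, 0 and 5 in that order. Trdc was thus not confined to members, although few HCC cells of the NK, B and macrophage classes had it. A UMI was present in 11 of 223 NK cells (4.93%, median 5683 UMIs) and in 1 of 689 B cells (0.145%, median 3851 UMIs). It was present in 0 of 497 macrophages (floor of 3 counts 0.604%, exact upper limit 0.739%).

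Receptor genes that the rule did not use were found in most members. Gamma constant genes (Tcrg-C1, Tcrg-C2 or Tcrg-C4) had a UMI in 32 of 38 HCC members, 5 of 6 high-AFP, 5 of 5 low-AFP and 4 of 6 control members. Tcrg-C1, the constant gene joined to V gamma 4, 5, 6 and 7 segments in mouse, stood at 594 CPM in HCC members (CPM being UMIs summed over cells and scaled to the same total of nuclear-encoded UMIs in every class), against 6.77 CPM in HCC CD8 T cells, 15.9 CPM in CD4 T cells and 4.49 CPM in NK cells. Tcrg-C2 stood at 198 CPM in members, 135 CPM in CD8 T, 14.3 CPM in CD4 T and 5.24 CPM in NK cells. Tcrg-C4 stood at 109 CPM in members, 71.0 CPM in CD8 T and 154 CPM in NK cells. Of the gamma constant genes, Tcrg-C1 thus differed most between members and the other lymphocytes of HCC. Tcrg-C1 and Tcrg-C2 are near-identical in sequence, so the division of reads between them is uncertain. The CD4 T and CD8 T classes were also defined without Trdc, which members had to have, so these contrasts partly follow the rule.

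Alpha chain receptor RNA was low but present, whereas beta chain RNA was higher. Trac, the alpha chain constant region, had 25 UMIs in 16 of 38 HCC members (124 CPM), against 852 CPM in CD8 T cells and 616 CPM in CD4 T cells. It was found in 2 of 6 high-AFP, 2 of 5 low-AFP and 1 of 6 control members, with 5 UMIs in that control member, whose Trdc count was 1. A UMI of Trbc1 or Trbc2, beta chain constant genes that gamma delta T cells can transcribe, was present in 35, 5, 5 and 6 members of HCC, high-AFP, low-AFP and control. In that order Trbc1 stood at 307, 1213, 972 and 1343 CPM and Trbc2 at 921, 791, 1566 and 458 CPM. Single members held up to 9, 20, 15 and 16 Trbc1 UMIs. The control members had 44 Trbc1 UMIs, more than their 36 Trdc UMIs. Without the members that had Trac, the share of T-lineage barcodes in HCC was 0.858%. Trac had 11 UMIs in 11 of 223 HCC NK cells (4.93%), which lack CD3 by rule.

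Among delta segments, Trdv4 was found in the most members. It had 61 UMIs in 23 of 38 HCC members (60.5%, 43.4 to 76.0), 5 UMIs in 2 of 6 high-AFP members, 5 UMIs in 4 of 5 low-AFP members and none in 6 control members. Trdv1 had 1 UMI in each of 2 high-AFP members, both without Cd163l1, and none in other members, and Trdv5 had 1 UMI in HCC. In HCC Trdv4 stood at 302 CPM in members, against 0.282 CPM in CD8 T cells, 17.2 CPM in NK cells, and 0 UMIs in CD4 T cells. The CD4 T and CD8 T classes had to lack Trdc, the constant region of the same chain. Their low Trdv4 is therefore largely set by the rule and is not a finding, whereas NK cells could have Trdc. Tcrg-V6 was found in 5 HCC members, 1 high-AFP member and 1 low-AFP member, with 1 UMI each, and in no control member. All 5 HCC members with Tcrg-V6 also had Trdv4, the partner shown above. Tcrg-V5 was found in 5 other HCC members, 3 of them with Trdv4, and no HCC member had both Tcrg-V5 and Tcrg-V6. Tcrg-V4 had 1 UMI in HCC and Tcrg-V1 had 1 UMI each in HCC and control. The gamma segment in the most members was Trgv2, with 13 UMIs in 11 HCC members, 4 UMIs in 3 high-AFP, 3 UMIs in 2 low-AFP and 5 UMIs in 2 control members. Of the 11 HCC members with it, 8 had Cd163l1 and 3 did not, 8 had Trdv4, 3 had Tcrg-V5 and 2 had Tcrg-V6. Trgv2 was thus not tied to either side of the Cd163l1 split, and in HCC it was also present in 393 of 1921 CD8 T cells (20.5%).

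Defining type 17 genes were found in members of HCC, high-AFP and low-AFP, and in none of the 6 control members. Counting a UMI of Il23r, Il17a, Il17f or Cd163l1, the share was 25 of 38 in HCC (65.8%, 48.6 to 80.4), 3 of 6 in high-AFP (50%, 11.8 to 88.2), 4 of 5 in low-AFP (80%, 28.4 to 99.5) and 0 of 6 in control (upper limit 45.9%). After every member was thinned to 1000 UMIs the shares were 52.6% (35.8 to 69.0) in HCC, 50% in high-AFP, 60% in low-AFP and 0% (upper limit 45.9%) in control, and the HCC and control intervals then overlapped. At full depth the HCC and control intervals did not overlap. The 21-gene type 17 list, which adds genes such as Tmem176a and Maf, summed to 6347 CPM in HCC, 9705 CPM in high-AFP, 7937 CPM in low-AFP and 946 CPM in control. In other HCC cells at full depth the share was 4.72% of CD4 T cells (5 of 106) and 0.469% of CD8 T cells (9 of 1921). It was 0 of 223 NK cells (floor of 3 counts 1.35%, exact upper limit 1.64%) and 0 of 689 B cells (floor 0.435%, exact upper limit 0.534%).

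Cd163l1 carried most of this. Among the 6 high-AFP members its UMI counts were 0, 5, 13, 0, 8 and 0. Among the 5 low-AFP members they were 8, 10, 0, 4 and 1, and all 6 control members had 0. In the 38 HCC members the lowest count was 0, the median 5 and the highest 14. Summed, Cd163l1 had 176 UMIs (871 CPM) in 25 HCC members, 26 UMIs (1371 CPM) in high-AFP, 23 UMIs (1242 CPM) in low-AFP and 0 in control. A floor of 3 UMIs over the 32769 nuclear-encoded UMIs of the control members is 91.5 CPM. The Cd163l1 level was 9.52-fold that floor in HCC, 15.0-fold in high-AFP and 13.6-fold in low-AFP. These folds are not lower bounds, because 0 UMIs in control has an exact upper limit of 113 CPM. These values rest on 6 control cells of 1 library. Over all kept barcodes, 2 or more Cd163l1 UMIs were found in 25 barcodes of HCC, 24 of them members, in 3 of high-AFP and 3 of low-AFP, all members, and in 1 of control, a T-lineage barcode with Cd8b1. With a single UMI counted, 39 HCC barcodes had the gene, of which 25 were members, 9 were T-lineage barcodes with Cd8b1 and 5 were outside the T lineage. At 2 or more UMIs nearly all barcodes with Cd163l1 in these libraries were thus members, although the rule did not use it.

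Blk, a Src-family kinase needed by type 17 gamma delta T cells in mouse and also active in B cells, followed the same cells, with 55 UMIs in 22 HCC members, 8 UMIs in 3 high-AFP members, 8 UMIs in 4 low-AFP members and 0 in control. Every one of those cells had Cd163l1. Of the B cell markers, Ms4a1 was at 0 in all members. Cd79b had 5 UMIs in 4 HCC members and 3 UMIs in 2 low-AFP members, and Ighm had 17 UMIs in 9 HCC members (84.2 CPM), 3 UMIs in 2 high-AFP members (158 CPM), 0 in low-AFP and 7 UMIs in 3 control members (214 CPM). Il23r, the receptor for the cytokine that sustains type 17 cells, had 16 UMIs in 10 HCC members, 0 in high-AFP, 1 in low-AFP and 0 in control.

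Interleukin 17 RNA itself was concentrated in few cells. Il17a had 27 UMIs in 6 of 38 HCC members, the highest with 14. High-AFP had 52 UMIs, all in 1 of its 6 members, low-AFP had 3 UMIs in 1 of 5 members and control had none. The high-AFP level of 2743 CPM is therefore that of 1 cell. Il17f had 1 UMI in HCC and none elsewhere, and Il22, another type 17 cytokine, had none in any member. Areg, which encodes a tissue-repair growth factor, had 1 UMI in HCC. The second scavenger receptor gene of this family, 5830411N06Rik (Scart2), which marks V gamma 4 type 17 cells in mouse, had 0 UMIs in all 55 members.

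**Figure D2:**
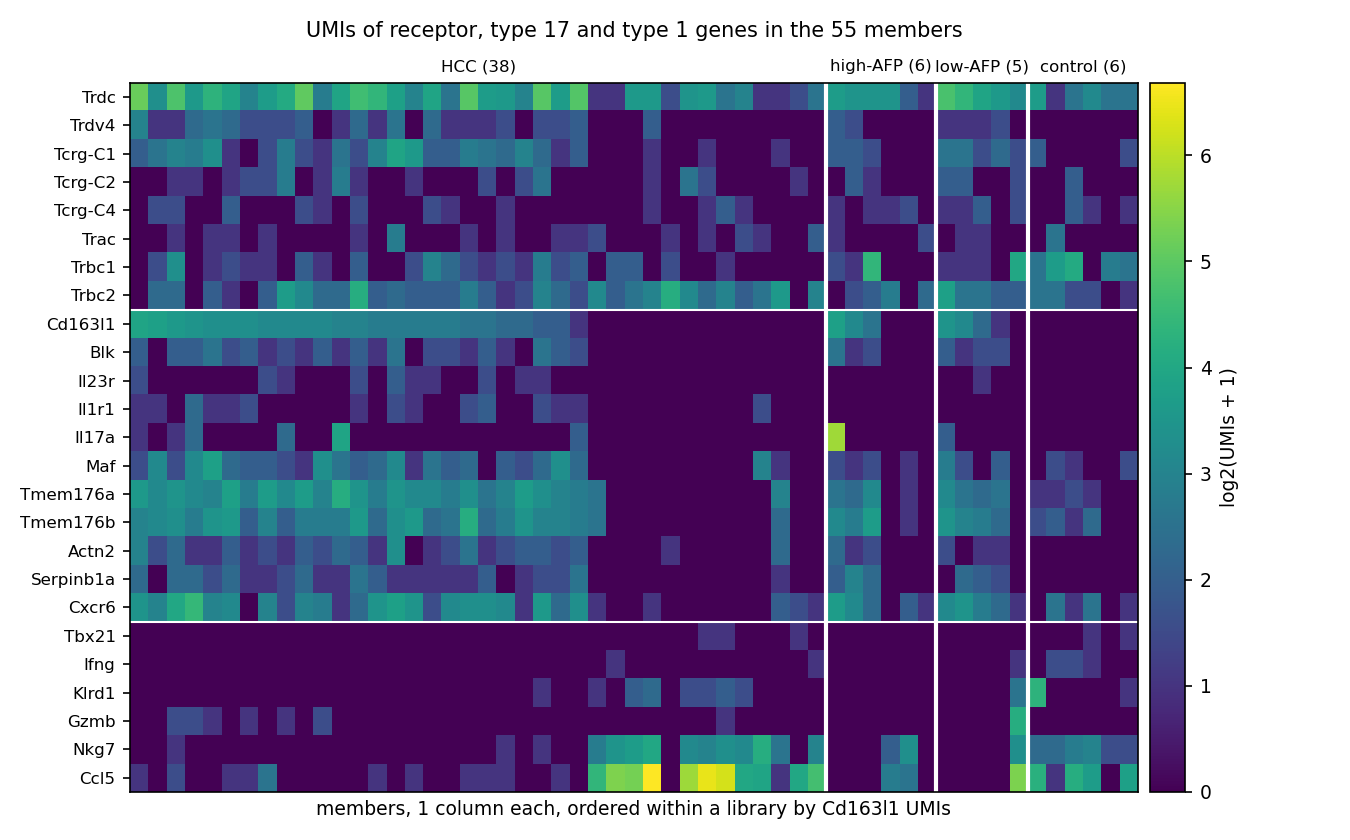
UMIs, as log2(UMIs + 1), of receptor genes (top block), type 17 genes (middle block) and type 1 genes (bottom block) in each of the 55 members, grouped as HCC, high-AFP, low-AFP and control. Within HCC, the 25 members with Cd163l1 hold all Blk, Il23r and Il17a UMIs, and the 13 without it hold nearly all Nkg7.

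Type 1 genes were found in most control members, as in most control CD8 T cells. A UMI of Tbx21, Eomes, Ifng, Klrd1, Gzma or Gzmb was present in 18 of 38 HCC members (47.4%, 31.0 to 64.2), 1 of 6 high-AFP members (16.7%, 0.421 to 64.1), 1 of 5 low-AFP members (20%, 0.505 to 71.6) and 5 of 6 control members (83.3%, 35.9 to 99.6). These intervals overlapped, and at 1000 UMIs per cell the shares were 13.2% in HCC, 0% in high-AFP, 20% in low-AFP and 33.3% in control. Thinning thus lowered the type 1 share of HCC and control members by more than their type 17 share. At full depth the same call held in 82.1% of CD8 T and 56.4% of CD4 T cells of control. It held in 77.5% of control T-lineage barcodes without Trdc, Cd4 or Cd8b1. In HCC it held in 94.3% of CD8 T and 56.6% of CD4 T cells, so a type 1 gene was not particular to members. Ifng, interferon gamma, had 2 UMIs in 2 HCC members, 0 in high-AFP, 1 in low-AFP and 5 UMIs in 3 control members. Klrd1, an NK-type inhibitory receptor chain, had 18 UMIs in 8 HCC members, 0 in high-AFP, 5 UMIs in 1 low-AFP member and 20 UMIs in 2 control members, 19 of them in 1 cell.

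Cytotoxic granule genes were weak apart from Nkg7. Nkg7, a granule membrane gene, had 107 UMIs in 14 of 38 HCC members, 12 UMIs in 2 of 6 high-AFP members, 9 UMIs in 1 of 5 low-AFP members and 25 UMIs in 6 of 6 control members. The control members had 4, 4, 6, 7, 2 and 2 Nkg7 UMIs, so that no control cell was at 0, while most cells of the other libraries were. Gzmb, granzyme B, had 10 UMIs in 7 HCC members, 0 in high-AFP, 17 UMIs in 1 low-AFP member and 0 in control. Gzma, granzyme A, had 1 UMI in HCC and none in the other libraries.

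Within HCC the members fell into cells with and without Cd163l1, a split chosen after the values were seen and given as a description only. There were 25 members with it (median 5373 UMIs) and 13 without (median 5724 UMIs). Trdv4 was found in 22 of 25 with and 1 of 13 without, and Tcrg-C1 in 24 of 25 with and 3 of 13 without. Trdc itself had a median of 14 UMIs in cells with Cd163l1 and 5 in cells without. Outside the Cd163l1 gene the type 17 list summed to 8512 CPM in cells with it and 782 CPM in cells without.

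Further type 17 genes and surface receptors separated the same cells. Il23r had 16 UMIs in 10 cells with Cd163l1 and 0 in 13 cells without. Maf, a transcription factor required for type 17 gamma delta T cells, was found in 24 of 25 cells with Cd163l1 and 2 of 13 without, and Il1r1, an interleukin 1 receptor chain, in 14 of 25 and 1 of 13. Sox13, another factor of this lineage, was found in 8 of 25 and 0 of 13. Actn2, which encodes a muscle-type actinin, was found in 24 of 25 cells with Cd163l1 and 2 of 13 without, and Serpinb1a, a protease inhibitor, in 23 of 25 and 1 of 13. Cxcr6, a chemokine receptor of liver-resident lymphocytes, had 189 UMIs in 24 of 25 cells with Cd163l1 and 8 UMIs in 5 of 13 without. Ccr2, a chemokine receptor for entry into inflamed tissue, was found in 25 of 25 and 3 of 13.

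Cells without Cd163l1 carried NK-type and cytotoxic genes apart from Gzma and most Gzmb, but most of the doubtful members were among these 13. All 6 HCC members without a gamma constant UMI were here, 4 of them with Trac. So were all 4 HCC members with a single Trdc UMI and 3 of the 4 doublet calls. Whether these members are gamma delta T cells was not tested. Ccl5, a chemokine of cytotoxic lymphocytes, had 130 CPM in cells with Cd163l1 and 6113 CPM in cells without. Nkg7 was found in 3 of 25 cells with and 11 of 13 cells without, Klrd1 in 1 of 25 and 7 of 13, and Klrb1c, which encodes NK1.1, in 0 of 25 and 7 of 13. Ly6c2, a memory-type surface antigen, was found in 0 of 25 and 7 of 13, and Cd27, which marks interferon gamma producers among mouse gamma delta T cells, in 1 of 25 and 9 of 13. Id3 was at 0 in both. Of the 8 HCC members with both a type 17 and a type 1 gene, 6 had Gzmb, 1 had Klrd1 and 1 had Gzma, with at most 2 UMIs. The granzymes thus went the other way, as 6 of the 7 HCC members with Gzmb and the 1 with Gzma had Cd163l1. Pdcd1, the PD-1 checkpoint receptor, had 11 UMIs in 9 of 25 cells with Cd163l1 and 0 in 13 cells without.

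**Figure D3:**
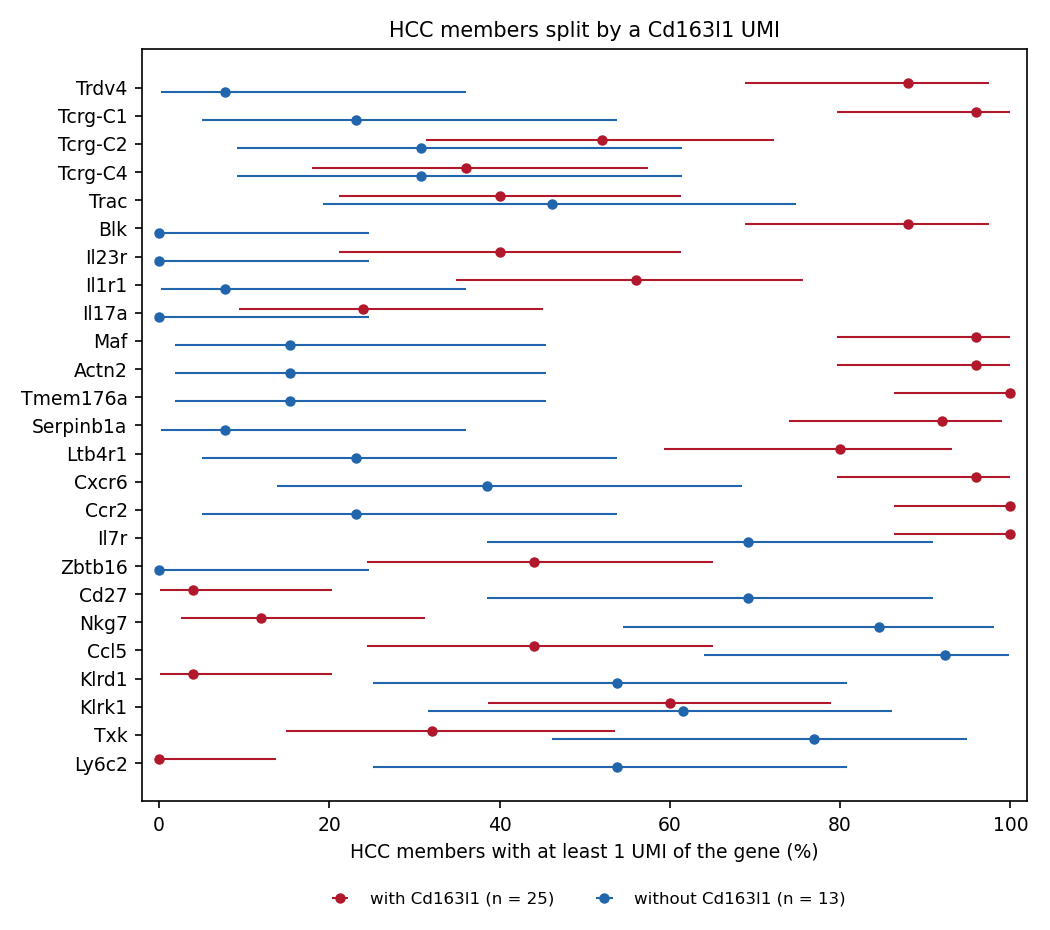
Percentage of HCC members with at least 1 UMI of each gene, with exact 95% intervals, for the 25 members with Cd163l1 (red) and the 13 without (blue). Trdv4, Blk, Maf and Actn2 are mostly in the first, and Nkg7, Klrd1, Ly6c2 and Cd27 mostly in the second, whereas Trac and Klrk1 are at similar shares.

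Some members carried RNA of other cells. In HCC, 4 members were called doublets by Scrublet, 1 with Cd163l1 and 3 without. The 2 members of highest depth (17083 and 15087 UMIs, both doublet calls) had 1 Trdc UMI each, with 37 and 354 UMIs of Lyz2, a myeloid gene. Another doublet call had 238 UMIs of S100a8, a neutrophil gene, beside 8 Cd163l1 UMIs. Foxp3, the regulatory T cell factor, had 4 UMIs in 1 HCC member and 3 UMIs in 1 high-AFP member, each with a single Trdc UMI. Without the doublet calls, 70.6% of HCC members had a type 17 gene, and with at least 2 Trdc UMIs required, 73.5% did. The 6 hepatocyte markers summed to 1243 CPM in HCC members, 11709 CPM in high-AFP, 7667 CPM in low-AFP and 17272 CPM in control, with a range per member of 0 to 108 UMIs in HCC, 30 to 44 in high-AFP, 19 to 38 in low-AFP and 44 to 250 in control. CD8 T cells of the same libraries had 2600, 7110, 6728 and 12621 CPM of them. The part of hepatocyte RNA in the differences between libraries was not tested. Of the 5 NK markers, Klra8 and Klra4 were at 0 in every member, and the summed level was 114 CPM in HCC, 52.7 CPM in high-AFP, 108 CPM in low-AFP and 91.5 CPM in control.

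Only HCC reached the 20 members set as the least for a comparison over all genes, so no such comparison was made between libraries. In its place the 38 HCC members were compared with 106 CD4 T cells, 1921 CD8 T cells and 223 NK cells of HCC. The classes were defined by Cd4 without Trdc, by Cd8b1 without Trdc, and by Ncr1 without CD3. As these are cells of 1 library chosen by marker genes, the log2 folds, taken after adding 50 CPM to each level, are a description with no test. Against CD4 T cells 144 of 1727 measured genes (8.34%) were at least 2-fold apart, 63 higher (3.65%) and 81 lower (4.69%) in members. Against CD8 T cells there were 171 of 1677 (10.2%), 87 higher (5.19%) and 84 lower (5.01%). Against NK cells there were 200 of 1747 (11.4%), 88 higher (5.04%) and 112 lower (6.41%). A gene was measured with at least 100 CPM, 20 UMIs and 5 cells on either side, so a listed gene could pass through its high side alone and counts over lists support nothing by themselves.

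Of the 21 type 17 genes, 15 were measured in each comparison, and 13, 14 and 15 of them were higher in members than in CD4 T, CD8 T and NK cells, with medians of 1.54, 2.21 and 1.88 on the log2 scale. The medians over all measured genes were 0.05, 0.06 and 0.02. Cd163l1 led the named genes of all 3 comparisons at log2 folds of 4.20, 4.18 and 4.20, with 871 CPM in members, 0.940 CPM in CD8 T cells and 0 UMIs in CD4 T and NK cells. Blk stood at 2.64, 2.68 and 2.67, Actn2 at 2.57, 2.26 and 3.01, and Serpinb1a at 1.84, 2.59 and 2.63. Tmem176a, a membrane protein gene active in type 17 lymphocytes, had 1159 CPM in members, 357 CPM in CD4 T cells, 76.2 CPM in CD8 T cells and 279 CPM in NK cells. Il17a was less distinct from CD4 T cells, at 134 CPM in members and 62.1 CPM in CD4 T cells (log2 fold 0.71), where 3 CD4 T cells held all 39 UMIs. Maf differed little, at 584 CPM in members, 519 CPM in CD4 T and 465 CPM in CD8 T cells (log2 folds 0.16 and 0.30).

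Most measured cytotoxic genes were lower in members than in NK cells, and 10 of 19 were lower than in CD8 T cells. In the type 1 and cytotoxic list of 24 genes, 0 were higher and 10 lower of 19 measured against CD8 T cells (median -1.55), and 0 higher and 19 lower of 20 measured against NK cells (median -1.84). Against CD4 T cells 3 were higher and 2 lower of 14 measured (median -0.18), the 3 higher being Ly6c2, Txk and Klrc2. Gzma had 4.95 CPM in members, 745 CPM in CD8 T cells and 2013 CPM in NK cells, with log2 folds of -3.86 and -5.23. Ccl5 had 2480 CPM in members, 7116 CPM in CD4 T cells, 27078 CPM in CD8 T cells and 8407 CPM in NK cells. Ccl4 and Ccl3, chemokines of activated cytotoxic cells, had 79.2 and 24.8 CPM in members, against 2270 and 952 CPM in CD8 T cells.

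**Figure D4:**
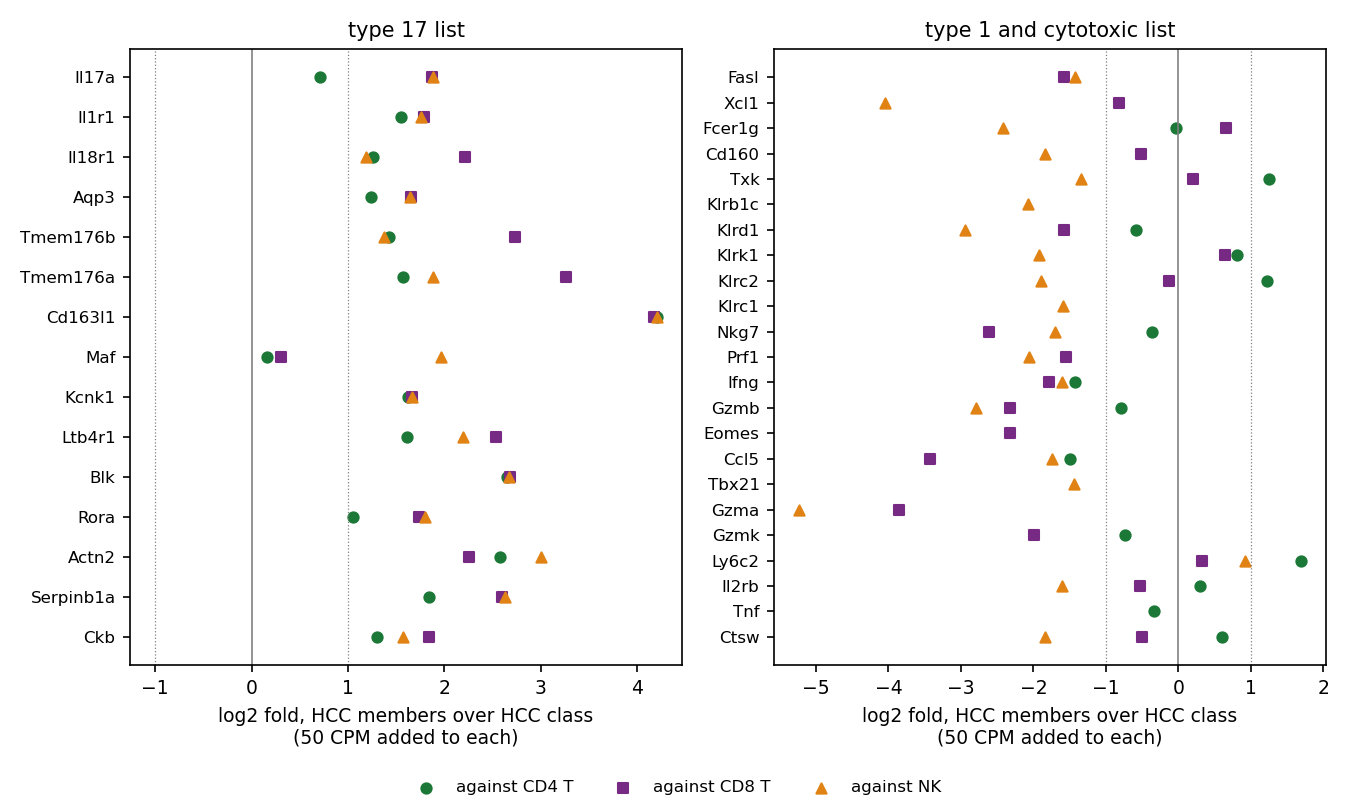
Log2 fold (50 CPM added to each level) of HCC members over HCC CD4 T cells (circles), CD8 T cells (squares) and NK cells (triangles), for measured genes of the type 17 list (left) and of the type 1 and cytotoxic list (right). Dotted lines mark 2-fold; the type 17 genes lie right of 0, and against NK cells all 20 measured cytotoxic genes but Ly6c2 lie past 2-fold on the left.

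Receptor signalling and checkpoint genes differed by gene. Lat, the adaptor that links the receptor to its signalling partners, had 500 CPM in members, against 296 CPM in CD4 T, 386 CPM in CD8 T and 37.4 CPM in NK cells. Cd28, the main co-stimulatory receptor, had 79.2 CPM in members, against 468 CPM in CD4 T and 413 CPM in CD8 T cells, and Cd6 had 9.90 CPM in members, against 116 and 103 CPM. Of 12 measured genes of the T cell receptor signalling list, 5 were lower than in CD4 T cells with none higher, and 5 were lower and 2 higher than in CD8 T cells. Ctla4, an inhibitory receptor, had 4.95 CPM in members, against 213 CPM in CD4 T and 176 CPM in CD8 T cells, and Lag3 had 9.90 CPM in members, against 239 CPM in CD8 T cells. Pdcd1 had 54.5 CPM in members, against 55.7 CPM in CD4 T and 233 CPM in CD8 T cells.

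Residence, homing and cytokine receptor genes gave mixed values. Cxcr6 had 975 CPM in members, against 221 CPM in CD4 T, 476 CPM in CD8 T and 269 CPM in NK cells. Itgae, the CD103 integrin of resident lymphocytes, had 153 CPM in members, 15.9 CPM in CD4 T and 4.32 CPM in CD8 T cells, and all 31 UMIs were in cells with Cd163l1. Rgs1 and Bhlhe40, also residence genes, were lower in members, at 302 and 34.7 CPM, against 1055 and 228 CPM in CD8 T cells. Ccr2 had 698 CPM in members, against 145, 140 and 242 CPM in CD4 T, CD8 T and NK cells. Il7r, the receptor for interleukin 7 on which type 17 gamma delta T cells depend, had 1040 CPM in members, against 511, 166 and 147 CPM.

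Other genes named by rank added structure, calcium-binding and surface molecules. Jaml, an adhesion receptor that co-stimulates gamma delta T cells, had 361 CPM in members and 49.4 CPM in CD4 T cells. Abi3bp, an extracellular matrix protein gene, had 30 UMIs in 16 members, none in CD4 T cells and 1 UMI in CD8 T cells. Ramp1, a chain of the receptor for the neuropeptide CGRP, had 475 CPM in members and 19.4 CPM in CD8 T cells. Capg, an actin-capping protein gene, had 639 CPM in members, 62.7 CPM in CD8 T cells and 81.5 CPM in NK cells. Of the calcium-binding and galectin list, 3 of 8 measured genes were higher than in CD4 T cells, 4 of 8 than in CD8 T cells and 5 of 9 than in NK cells, with none lower. Lgals1 in it had 2208 CPM in members, against 712, 686 and 679 CPM in CD4 T, CD8 T and NK cells.

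Between the libraries those genes could be followed only as levels. Lgals1 stood at 2208 CPM in HCC members, 1530 CPM in high-AFP, 1080 CPM in low-AFP and 366 CPM in control. S100a6, a calcium-binding protein gene, stood at 3986, 4800, 5021 and 1495 CPM in the same order, where 1 high-AFP member held 39 of 91 UMIs and 1 control member 23 of 49. The libraries also differed in make-up, as no control member had Cd163l1. In cells with Cd163l1 the calcium-binding and galectin list summed to 19438 CPM in HCC, 23342 in high-AFP and 14837 in low-AFP. In cells without, it summed to 5836 CPM in HCC, 4357 in high-AFP, 17197 in 1 low-AFP cell and 6531 in control. The part of make-up in these levels was not tested. The dissociation list, genes induced when tissue is digested, summed to 3768 CPM in HCC, 686 CPM in high-AFP, 648 CPM in low-AFP and 2411 CPM in control, and 1 control member held 74.7% of the control UMIs. The proliferation list had 26 UMIs in 19 HCC members and 2 UMIs in each other library, with Birc5 and Cdk1 at 0 in all members.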

How the data were processed

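The deposited matrices hold raw UMI counts per gene and barcode, made with Cell Ranger (3.0.2 per the file headers). The submitters' processing notes also name R 3.0, Seurat 3 and mm9, and no coordinate from the files was used. The kit was a 10x Genomics Single Cell 3' kit, per the labels' protocols. Kept barcodes had at least 300 genes, 500 UMIs and at most 30% mitochondrial UMIs, which left 8004 in HCC, 8477 in high-AFP, 5359 in low-AFP and 6359 in control, with medians of 4840, 6260, 7324 and 5419 UMIs. The mitochondrial limit was exceeded by 8.19%, 26.5%, 42.0% and 42.7% of deposited barcodes in that order.

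UMIs were summed over members and expressed as CPM of nuclear-encoded UMIs, with exact Poisson (sums) and Clopper-Pearson (shares) 95% intervals and a floor of 3 counts. Thinning to 1000 UMIs used seed 1. Scrublet in scanpy 1.11.5 called doublets, which were kept in the main values. Its automatic threshold was used in control, and the highest scores at 0.8% per 1000 barcodes elsewhere, because the threshold marked under 0.5% there. With 1 library per group no p-value was computed.

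The planned comparison of all genes between libraries needed 20 members in each and could not be made, so members were compared with other HCC classes, a choice made after seeing the data. That comparison named the 10 genes of largest log2 fold each way. It left out genes that hepatocytes, macrophages, B cells or neutrophils hold at over 2 times the level, and receptor, ribosomal and unnamed genes, and members of the lists were named beside them. Some genes are not reported here, and the type 17 set and list were computed without them, a choice made after seeing the data. Members, lists and rules were chosen with earlier results of these data known. The fold rule was tested on simulated data. Python 3.11.15 was used with numpy 2.4.6, pandas 2.3.3 and scipy 1.17.1.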

Additional observations from a re-analysis of the deposited data

How the results depend on the processing

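The alternatives were removal of doublet calls, a mitochondrial limit of 15%, at least 3 CD3 UMIs, at least 2 Trdc UMIs, removal of members with Trac, thinning to 1000 UMIs, and, for the comparison with other HCC classes, other pseudocounts, no gene minimum, averaging over cells, and leaving out the member with the most UMIs. Of the shares and counts, 85 stayed within their counting interval or within 1.5 times and 6 moved. Thinning took the type 1 share to 13.2% in HCC, 0% in high-AFP and 33.3% in control. Without members that had Trac, gamma delta cells were 0.858% of T-lineage barcodes in HCC. With pseudocounts of 10 and 100 CPM, 219 and 83 genes were at least 2-fold apart from CD4 T cells, in place of 144, and the pseudocount by its construction damps low genes. Of 540 single-gene log2 folds under these settings, 157 left their counting interval, none changed sign and 538 stayed past 2-fold. No paired analysis was possible because each group is 1 library, and leaving out a replicate was not possible for the same reason. Shares in high-AFP, low-AFP and control rest on 5 or 6 cells each. Settings meant for comparing all genes between libraries were not run, since those comparisons could not be made.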

Other observations

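Cells with Cd163l1 were also found in high-AFP and low-AFP, too few for a comparison with those of HCC. The type 17 list without Cd163l1 itself summed to 8512 CPM in the 25 HCC cells, 15040 CPM in the 3 high-AFP cells, where 52 Il17a UMIs came from 1 cell, and 8478 CPM in the 4 low-AFP cells. The type 1 and cytotoxic list in the same cells summed to 946, 488 and 137 CPM. In members without Cd163l1 that list summed to 12378 CPM in the 13 HCC cells, 6192 CPM in the 3 high-AFP cells, 29261 CPM in the 1 low-AFP cell and 8209 CPM in the 6 control cells.

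Of the HCC members without Trdv4, 3 of 15 had Cd163l1, against 22 of 23 with Trdv4. Id3, a regulator of gamma delta T cell fate, had 0 UMIs in 38 HCC members, 1 UMI in high-AFP, 1 UMI in low-AFP and 9 UMIs in 2 of 6 control members, 8 of them in 1 cell. Zbtb16, which encodes the innate-like factor PLZF, had 18 UMIs in 11 HCC members, all with Cd163l1, 0 in high-AFP and low-AFP, and 2 UMIs in 2 control members. Among HCC NK cells, which lack CD3 by rule, 9.87% had Trdv4 and 48.9% had Tcrg-C4, so neither gene alone marks a gamma delta T cell in this library.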
